A study of Homo sapiens with 6 samples.

Results

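The genes described here are the cyclins, cyclin-dependent kinases (CDKs) and CDK inhibitors of the G1 phase of the cell cycle. They were taken by symbol from a table of 20442 genes and comprise 10 genes: the inhibitors CDKN1A, CDKN1B and CDKN2C, the cyclins CCND1, CCND3, CCNE1 and CCNE2, and the kinases CDK2, CDK4 and CDK6. All 10 had a row and all 10 passed the filter on low counts. RNA was sequenced from T24 cells, a long-established human line from bladder carcinoma that is known to carry mutated HRAS. The si-KNSTRN group had received a small interfering RNA (siRNA) against KNSTRN, a spindle and kinetochore gene, for 24 h. The si-NC group had received a control siRNA for the same time. Both groups were the same line, had attached for 24 h before the siRNA was added and held 3 libraries each, called biological replicates by the submitters. The labels name 1 cell line, 1 time and 1 targeting and 1 control treatment, so that effects of the siRNA other than on KNSTRN cannot be told apart from effects of losing KNSTRN.

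In G1, D-type cyclins bind CDK4 and CDK6, and E-type cyclins bind CDK2. These kinases phosphorylate the retinoblastoma protein RB and its relatives, which releases E2F transcription factors and lets the cell enter S phase. INK4 inhibitors such as the product of CDKN2C bind CDK4 and CDK6 alone, whereas CIP/KIP inhibitors such as the products of CDKN1A (p21) and CDKN1B (p27) bind cyclin-CDK complexes and restrain those with CDK2. Much of this control acts on protein stability and phosphorylation, which RNA levels do not show.

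KNSTRN itself was at 13.6, 13.6 and 12.2 CPM in the si-KNSTRN libraries and at 38.3, 41.2 and 41.9 CPM in the si-NC libraries. It fell by 1.62 on the log2 scale, with an SE of 0.07 (edgeR, adjusted p = 1.7e-11). CPM are counted reads relative to the library total after TMM scaling, a correction for library composition, and fold changes are si-KNSTRN over si-NC from edgeR's quasi-likelihood test with Benjamini-Hochberg adjustment over 12650 genes tested. Libraries held 16386799 to 20596074 counted reads, and the limit that a count of 0 leaves through counting error alone, 3 reads, came to 0.148 to 0.187 CPM. The third si-KNSTRN library stood apart from the other two on the second principal component (16.8, against -11.2 and -8.26). Of the epithelial markers, KRT7, KRT8 and KRT18 had 13560 to 23265 reads per library, while CDH1 had none and EPCAM had 8 to 18. KRT5 and UPK3A, urothelial markers, had no reads, and UPK1B and UPK2 had at most 3. UPK1A, also scarce, had 2 to 5 reads in si-KNSTRN and 12 to 21 in si-NC libraries. It was called lower, at a log2 fold change of -2.20 (edgeR, adjusted p = 0.00024). PPARG was called higher, at 0.64 (edgeR, adjusted p = 6.4e-07), and UPK3B and GATA3 were not called. Of the leukocyte, endothelial and fibroblast markers, CD3E and COL1A2 had no reads, and PTPRC, CDH5 and DCN had at most 2, 4 and 1. Others were present: CD68 had 801 to 888 reads in si-KNSTRN and 540 to 666 in si-NC libraries, COL1A1 188 to 230 in si-KNSTRN and 216 to 280 in si-NC libraries, PECAM1 10 to 25 in si-KNSTRN and 6 to 15 in si-NC libraries, and PDGFRB 10 to 11 in si-KNSTRN and 24 to 44 in si-NC libraries. Both fibroblast markers that could be tested were called lower, PDGFRB at a log2 fold change of -1.88 and COL1A1 at -0.26 (edgeR, adjusted p = 1.1e-05 and 0.0250). Summed levels of the marker lists did move with the groups. The 6 epithelial markers came to 3077 to 3244 CPM in si-KNSTRN and 2834 to 3001 CPM in si-NC libraries. The 9 urothelial markers came to 44.6 to 49.6 CPM in si-KNSTRN and 29.4 to 33.6 CPM in si-NC libraries. The 6 leukocyte markers came to 45.7 to 48.3 CPM in si-KNSTRN and 30.8 to 36.2 CPM in si-NC libraries. The 6 endothelial markers came to 1.13 to 1.77 CPM in si-KNSTRN and 0.560 to 0.887 CPM in si-NC libraries. The 6 fibroblast markers came to 10.7 to 12.4 CPM in si-KNSTRN and 14.3 to 16.1 CPM in si-NC libraries. PPARG, CD68 and COL1A1 gave most of the urothelial, leukocyte and fibroblast sums. The part of these markers in the results was not tested.

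The cyclins rose, the kinases did not pass the test and the inhibitors divided. All 4 cyclin genes were called higher in si-KNSTRN cells (adjusted p under 0.05), with log2 fold changes of 0.54 to 1.06. None of the 3 kinase genes was called. Among the 3 inhibitor genes, CDKN1A rose and CDKN1B and CDKN2C fell. In all, 5 members were called higher and 2 lower. Across the table, 62.5% of genes tested were called, 31.2% higher and 31.3% lower, so that 7 of 10 members called lies near the share for all genes. The groups' CPM did not overlap for 9 of 10 members, against 67.3% of all genes tested. The median absolute log2 fold change was 0.56 over the 10 members and 0.28 over all genes tested, and 3 members (CDKN1A, CDKN2C and CCNE1) differed by at least 2-fold, as did 6.48% of all genes tested. CDK2, CDK4 and CDK6 lay at percentiles 19.7, 19.2 and 44.9 of the absolute change over all genes, so that each estimate was smaller than the median of 0.28. The 95% interval of CDK6, -0.55 to 0.068, extends past that size, whereas those of CDK2 and CDK4 do not. As the members were chosen with earlier results of these data known, this comparison with all genes is a description only. In bulk RNA, a change in the number of cells that express a gene and a change in RNA per cell cannot be told apart.

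**Figure D1:**
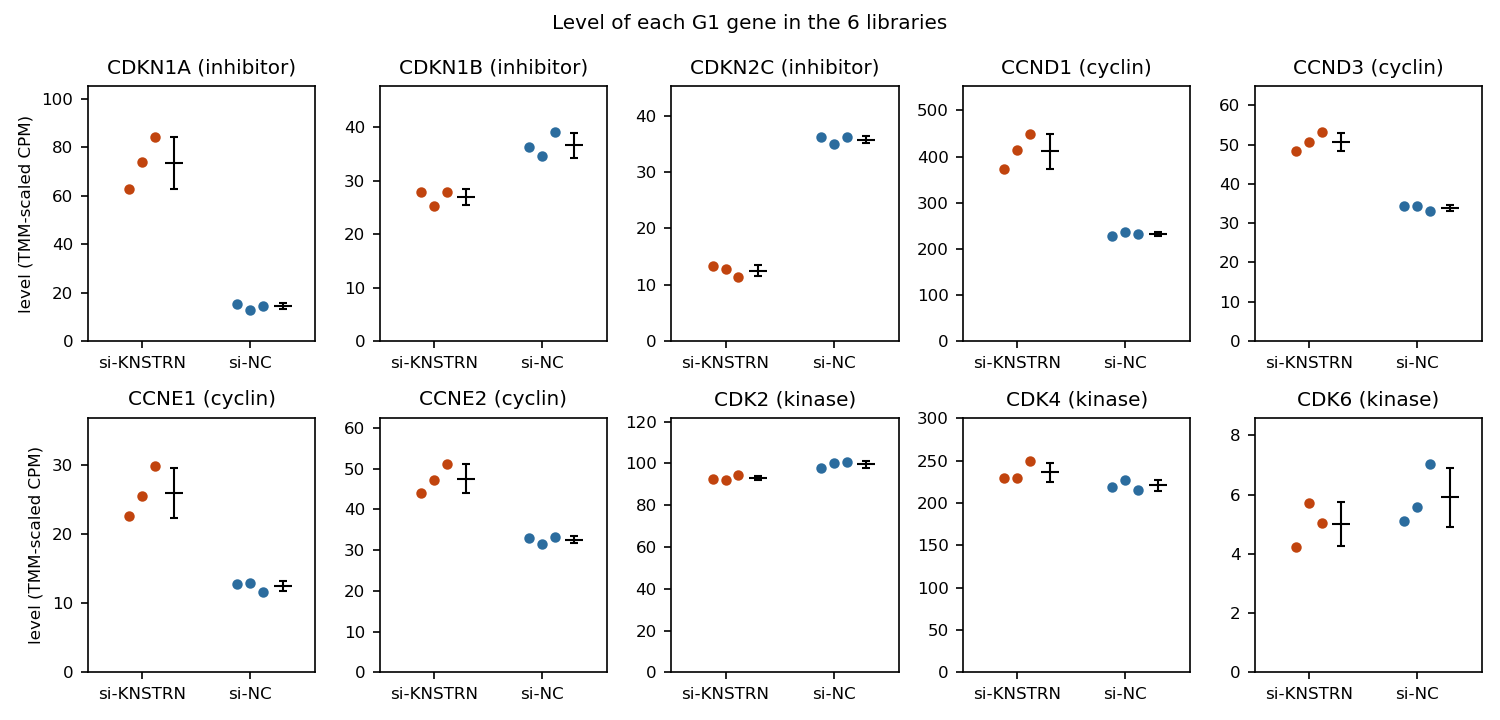
Level of each member (TMM-scaled CPM, axes from 0) in the 3 si-KNSTRN and 3 si-NC libraries, with the mean and SD beside the points. CDKN1A and the 4 cyclins lie higher in si-KNSTRN cells, CDKN1B and CDKN2C lower, and the CDK6 points overlap.

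CDKN1A (chromosome 6, 36676463 to 36687332, GRCh38.p14) encodes p21, which binds and inhibits cyclin-CDK complexes and is induced by many kinds of stress. It overlaps DINOL in RefSeq, and reads of the 2 genes cannot be told apart without a known strand setting. It had 1238, 1331 and 1562 reads in si-KNSTRN libraries, against 310, 207 and 265 in si-NC libraries. On the CPM scale these were 62.6, 73.8 and 84.1 in si-KNSTRN cells and 15.3, 12.9 and 14.6 in si-NC cells. Every si-KNSTRN library lay above every si-NC library. The log2 fold change of 2.36 (95% interval 2.15 to 2.57, adjusted p = 7.9e-12 by edgeR), a 5.14-fold rise, ranked CDKN1A 61st from the top of 12650 genes. The spread among si-KNSTRN libraries, a coefficient of variation of 14.6%, was wider than among si-NC libraries, at 8.64%. Among 10704 genes past a floor of 2 in average log2 CPM, the profiles closest to that of CDKN1A over the 6 libraries, by Euclidean distance of centred log2 CPM, were those of HMOX1, SGK1 and ODC1 (distances 0.15, 0.23 and 0.27). HMOX1 encodes heme oxygenase, SGK1 a serum- and glucocorticoid-regulated kinase and ODC1 the first enzyme of polyamine synthesis. Their log2 fold changes were 2.33, 2.38 and 2.34, and the distance is set largely by this difference between the groups.

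The promoter window of CDKN1A is shown because this gene had the largest change of the 10 members. It runs from 250 bases before to 50 bases after the annotated start (chr6:36678464-36678763, plus strand, RefSeq on GRCh38.p14), with SP1 boxes (GGGCGG or its complement CCGCCC) in capitals.
CDKN1A: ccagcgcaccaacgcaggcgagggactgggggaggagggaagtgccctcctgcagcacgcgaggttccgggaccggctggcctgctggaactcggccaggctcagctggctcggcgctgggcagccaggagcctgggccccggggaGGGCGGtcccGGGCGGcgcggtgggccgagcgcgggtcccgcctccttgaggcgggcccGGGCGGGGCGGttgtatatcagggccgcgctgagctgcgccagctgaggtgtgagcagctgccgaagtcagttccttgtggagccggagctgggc
This window holds 4 SP1 boxes, 2 of which overlap in 1 run. Promoter windows were used for 7 of the 10 members, 12 windows in all. No window of CCND1, CCNE2 or CDK2 was among them, which does not show that these genes have none. An SP1 box occurred in 9 of the 12 windows and in 44.9% of 35097 promoter windows of all genes. Neither the AP-1 element TGANTCA nor the E2F element TTTNNCGC, searched on both strands, occurred in any of the 12. They occurred in 7.71% and 6.89% of all windows. The E-box CACGTG occurred in 4 of the 12 and in 7.25% of all windows. The CCAAT box occurred in 4 of the 12 and in 34.6% of all windows. The TATA box TATAAA occurred in 0 of the 12 and in 11.5% of all windows. As the 12 windows come from only 7 genes, these shares are a description, and no difference was tested.

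CDKN1B (chromosome 12, 12717368 to 12722369, GRCh38.p14) encodes p27, the relative of p21 that holds cyclin E-CDK2 in check in resting cells. It was at 27.9, 25.3 and 27.9 CPM in si-KNSTRN libraries and at 36.3, 34.6 and 39.1 CPM in si-NC libraries. The groups did not overlap, and the gene fell by 0.44 on the log2 scale (95% interval -0.59 to -0.29, adjusted p = 3.6e-05 by edgeR). CDKN1A and CDKN1B, both of the CIP/KIP family, thus changed in opposite directions. CDKN1C, a gene of the same family that is not a member, was scarce and was called lower, at a log2 fold change of -0.37 (edgeR, adjusted p = 0.0241).

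CDKN2C (chromosome 1, 50960745 to 50974634, GRCh38.p14) encodes p18, an INK4 inhibitor of CDK4 and CDK6. It had 264, 232 and 211 reads in si-KNSTRN libraries, against 736, 563 and 659 in si-NC libraries. The corresponding levels were 13.3, 12.9 and 11.4 CPM in si-KNSTRN cells and 36.3, 35.0 and 36.2 CPM in si-NC cells. This was the largest fall of the 10 members, by 1.52 on the log2 scale (95% interval -1.67 to -1.36, adjusted p = 4.5e-11 by edgeR). This is a level lower by a factor of 2.86, and it ranked CDKN2C 108th from the bottom of all genes tested, beside rank 76 for KNSTRN.

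The word TGAGTA in the 3' untranslated region (UTR) had already been met more often among genes called lower when these data were first searched, so that it is no independent finding here. With the transcripts used now, 35.5% of 3767 genes called lower held it, against 19.3% of 3763 called higher and 27.1% of 4422 not called. The word occurred in 2 of the 10 members, CDKN2C and CDK6, against 27.3% of 11952 genes tested. CDKN2C alone held the longer CTGAGTA, which occurred in 12.1% of the same genes. Sites of CDKN2C and CDK6 are shown because these are the member with the largest fall and the member with the longest 3' UTR. Capitals mark the match, and each run has 30 bases. They lie at chr1:50974304-50974333 (plus strand), chr7:92613780-92613809 and chr7:92604939-92604968 (minus strand), in GENCODE release 29 on GRCh38.
CDKN2C: ttatcaattaaCTGAGTAgctctcctgact
CDK6, first site: ttacctaaataaTGAGTAggatcttgtttt
CDK6, last site: gtataactgtagTGAGTAAaattcattaaa
In the CDKN2C site, the word TGAGTA begins at base 46 of a 3' UTR of 363 bases. CDK6 holds 6 sites in a 3' UTR of 10219 bases, against a median length of 1108.5 bases over genes tested. None of the 6 is preceded by the C that CDKN2C has, and 1 is followed by a further A. CDKN1B, the other inhibitor that fell, held no TGAGTA, and nor did CDKN1A or any cyclin gene in the transcripts used. The siRNA sequence is not given in the sources used here, and whether any of these sites is acted on was not tested.

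CCND1 (chromosome 11, 69641156 to 69654474, GRCh38.p14) encodes cyclin D1, the D-type cyclin that links growth factor signals to CDK4 and CDK6. It was at 372, 414 and 449 CPM in si-KNSTRN libraries and at 228, 237 and 232 CPM in si-NC libraries. All si-KNSTRN libraries lay above all si-NC libraries, whose coefficient of variation was 1.85%. The log2 fold change was 0.83 (95% interval 0.70 to 0.95, adjusted p = 4.1e-09 by edgeR). The 3 genes nearest to CCND1 in profile were SOWAHC, FASN and FKBP5 (distances 0.070, 0.080 and 0.081). FASN encodes fatty acid synthase and FKBP5 a chaperone partner induced by glucocorticoids. CCND3 (chromosome 6, 41934933 to 42050035), which encodes cyclin D3, was at 48.3, 50.6 and 53.1 CPM in si-KNSTRN libraries and at 34.3, 34.3 and 33.1 CPM in si-NC libraries. It rose too, with a log2 fold change of 0.58 (95% interval 0.45 to 0.70, adjusted p = 3.3e-07). CCND2, the gene of cyclin D2, had no read in any library.

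CCNE1 (chromosome 19, 29811991 to 29824312, GRCh38.p14) encodes cyclin E1, the activating partner of CDK2 at the start of S phase. It had 446, 460 and 553 reads in si-KNSTRN libraries, against 260, 207 and 212 in si-NC libraries. Its levels were 22.6, 25.5 and 29.8 CPM in si-KNSTRN cells and 12.8, 12.9 and 11.6 CPM in si-NC cells, with no overlap. The log2 fold change of 1.06 (95% interval 0.86 to 1.26, adjusted p = 8.1e-08 by edgeR) was the largest among the 4 cyclins. The promoter window of CCNE1 (chr19:29811741-29812040, plus strand, RefSeq on GRCh38.p14) is shown beside that of CDKN1A because these 2 genes had the largest rises of the 10, with SP1 boxes in capitals.
CCNE1: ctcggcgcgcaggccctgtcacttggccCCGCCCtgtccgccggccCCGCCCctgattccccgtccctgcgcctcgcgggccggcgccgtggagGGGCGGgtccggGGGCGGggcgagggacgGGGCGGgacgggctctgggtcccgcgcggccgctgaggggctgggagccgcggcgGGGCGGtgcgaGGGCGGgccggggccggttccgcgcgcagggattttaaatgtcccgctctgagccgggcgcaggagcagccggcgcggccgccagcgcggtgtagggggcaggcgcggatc
It holds 7 SP1 boxes, the most of the 12 windows. The CDKN2C windows hold 0, 6 and 1, those of CCND3 5, 4 and 0, those of CDK6 3 and 0, and the single windows of CDKN1B and CDK4 1 and 3. No relation between these numbers and the changes was tested.

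CCNE2 (chromosome 8, 94880224 to 94896693, GRCh38.p14), the gene of the close relative cyclin E2, was at 44.0, 47.3 and 51.1 CPM in si-KNSTRN libraries and at 33.0, 31.6 and 33.2 CPM in si-NC libraries. The groups did not overlap, and the log2 fold change was 0.54 (95% interval 0.40 to 0.68, adjusted p = 2.1e-06 by edgeR). CCNE2 overlaps INTS8 and NDUFAF6. INTS8 fell by 0.24 on the log2 scale and NDUFAF6 had a log2 fold change of 0.70. The strand setting of the counting is not given in the sources used here, so that reads from the overlaps cannot be told apart. The same limit holds for CCND3, which overlaps LOC105375059 and RNU6-761P, and for CDK6, which overlaps CDK6-AS1, LOC112268009 and RNU6-10P in RefSeq, and, as with DINOL, these have no row in the table used. In all 4 cyclin genes and in CDKN1A, the third si-KNSTRN library was the highest and the first the lowest of its group. CDKN2C and KNSTRN were lowest in the third, but CDKN1B, which also fell, was highest there, as were CDK2 and CDK4. In all, 8 of 10 members were highest in the third. No call among the members depended on that library. Without it, the log2 fold changes were 2.25 for CDKN1A, 0.76 for CCND1, 0.54 for CCND3, 0.95 for CCNE1, 0.48 for CCNE2, -0.46 for CDKN1B and -1.45 for CDKN2C, each still called.

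CDK2 (chromosome 12, 55966830 to 55972789, GRCh38.p14), the partner of cyclin E, was at 92.6, 92.2 and 94.3 CPM in si-KNSTRN libraries and at 97.8, 100.5 and 100.6 CPM in si-NC libraries. The groups did not overlap, but the difference was small, a log2 fold change of -0.10 (95% interval -0.19 to -0.0058), and was not called (adjusted p = 0.0605 by edgeR). Of the alternatives run, CDK2 was called lower only with upper-quartile factors (log2 fold change -0.14, adjusted p = 0.0094). CDK4 (chromosome 12, 57747727 to 57752310), a partner of the D-type cyclins, was at 229, 230 and 249 CPM in si-KNSTRN libraries and at 219, 228 and 215 CPM in si-NC libraries. Its log2 fold change was 0.10 (95% interval -0.0037 to 0.20, adjusted p = 0.0864 by edgeR). It was called higher when libraries were scaled by their size alone (log2 fold change 0.13, adjusted p = 0.0257). CDK4 overlaps TSPAN31, which was far less abundant (19.9 ± 0.307 CPM in si-KNSTRN and 28.9 ± 0.654 CPM in si-NC cells, SD, n = 3 each) and fell by 0.53 on the log2 scale.

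CDK6 (chromosome 7, 92604921 to 92836573, GRCh38.p14), the second kinase partner of D-type cyclins, was the least abundant of the 10. It had 84, 103 and 94 reads in si-KNSTRN libraries, against 104, 90 and 128 in si-NC libraries, that is 4.25, 5.71 and 5.06 CPM in si-KNSTRN cells and 5.12, 5.60 and 7.03 CPM in si-NC cells. The groups overlapped. The log2 fold change of -0.24 had a 95% interval of -0.55 to 0.068 (adjusted p = 0.161 by edgeR), so that a fall to 0.68 of the si-NC level and a rise to 1.05 of it were both within the interval. The intervals of CDK2 and CDK4 were narrower and lay between 0.88 and 1.15 of the si-NC level. The genes nearest to CDK6 in profile were ZNF260, LACC1 and CDC37L1 (distances 0.13, 0.15 and 0.18), none of which was called (adjusted p = 0.172, 0.274 and 0.0520).

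**Figure D2:**
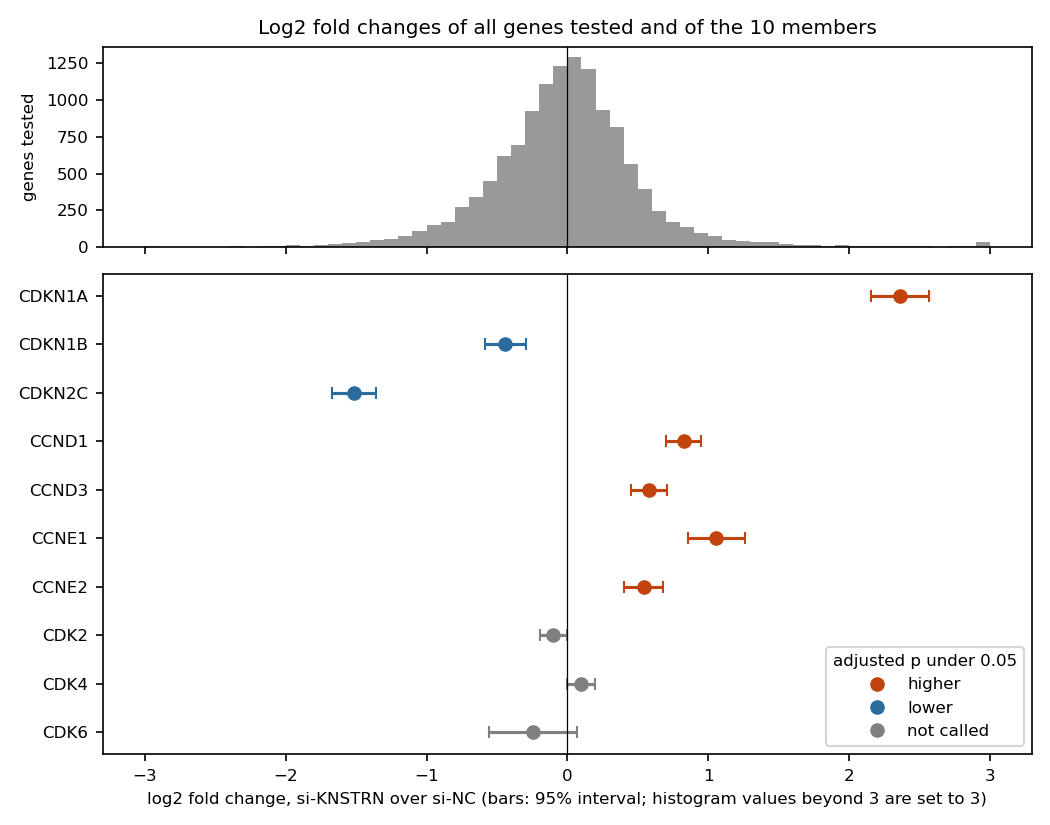
Log2 fold changes (si-KNSTRN over si-NC) of all 12650 genes tested as a histogram, above those of the 10 members with 95% intervals. CDKN1A at 2.36 and CDKN2C at -1.52 lie in the tails of the histogram, and the 3 kinases lie near 0.

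Levels of different genes were compared as CPM per kilobase of the chosen transcript. In si-KNSTRN cells the order, from the highest, was CDK4 (114 ± 5.40), CCND1 (95.6 ± 8.87), CDK2 (40.5 ± 0.487), CDKN1A (32.4 ± 4.74), CCND3 (24.3 ± 1.15), CCNE2 (14.3 ± 1.07), CCNE1 (12.7 ± 1.78), CDKN1B (10.2 ± 0.572), CDKN2C (4.31 ± 0.357) and CDK6 (0.431 ± 0.0630; SD, n = 3 each). In si-NC cells it was CDK4 (106 ± 2.99), CCND1 (53.9 ± 1.00), CDK2 (43.4 ± 0.690), CCND3 (16.3 ± 0.340), CDKN1B (13.8 ± 0.863), CDKN2C (12.3 ± 0.241), CCNE2 (9.79 ± 0.261), CDKN1A (6.28 ± 0.543), CCNE1 (6.09 ± 0.338) and CDK6 (0.510 ± 0.0856). CDKN1A stood 4th in si-KNSTRN cells and 8th in si-NC cells, and CDKN2C stood 9th in si-KNSTRN cells and 6th in si-NC cells. Neighbours in this order overlapped between libraries in 2 places, CCNE2 with CCNE1 in si-KNSTRN cells and CDKN1A with CCNE1 in si-NC cells. The order depends on the length used. With coding length, 2 members in si-KNSTRN cells and 4 in si-NC cells kept their place, and CCND1 came before CDK4 in both groups.

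**Figure D3:**
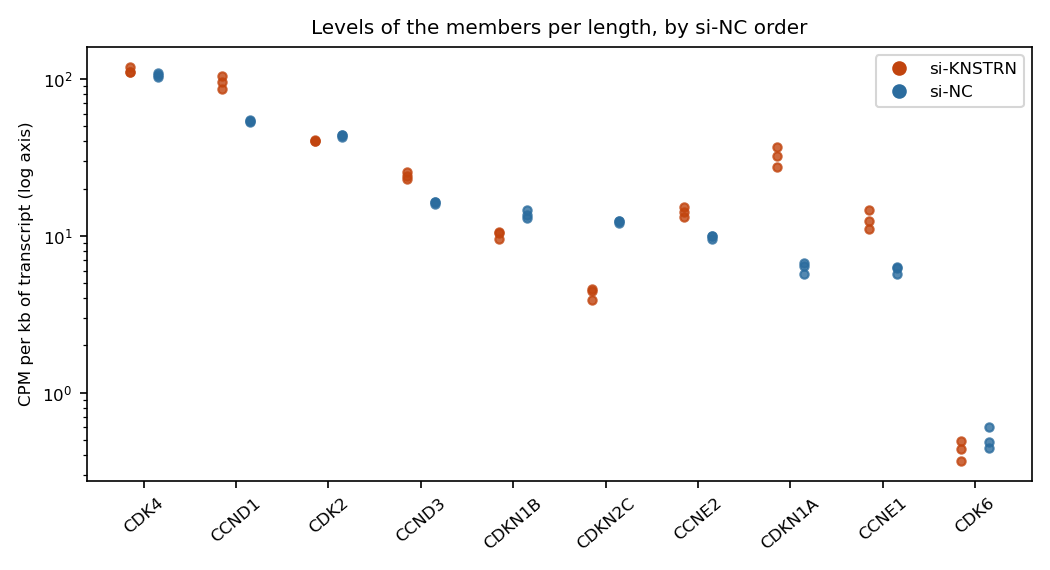
CPM per kb of transcript (log axis) of each member in the 3 si-KNSTRN and 3 si-NC libraries, ordered by the si-NC level. CDKN1A lay higher and CDKN2C lower in si-KNSTRN cells, and CDK6 was the lowest in both groups.

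Shares among related members within a library do not depend on how libraries are scaled. CDKN1A made up 64.7, 70.0 and 72.0% of the 3 inhibitors' reads per kb in si-KNSTRN libraries, against 20.5, 18.5 and 19.1% in si-NC libraries. The difference was 49.5 percentage points, and the groups did not overlap. Inhibitor genes that are not members, such as CDKN2A, are not counted in this share. CCNE2 made up 54.5, 53.2 and 51.3% of the E cyclins in si-KNSTRN libraries, against 61.3, 60.1 and 63.6% in si-NC libraries, a difference of -8.64 points. CCND1 made up 78.9, 79.8 and 80.4% of CCND1 and CCND3 in si-KNSTRN libraries, against 76.3, 77.0 and 77.2% in si-NC libraries, a difference of 2.85 points. CDK6 made up 0.330, 0.442 and 0.362% of CDK4 and CDK6 in si-KNSTRN libraries and 0.416, 0.438 and 0.580% in si-NC libraries, and here the groups overlapped. The exact two-sided permutation p was 0.10 for each of the first 3 shares, the smallest that 3 against 3 libraries allow, and 0.30 for CDK6. Adjusted over the 4 shares these were 0.133 and 0.30, so that none passed 0.05 and none could have.

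**Figure D4:**
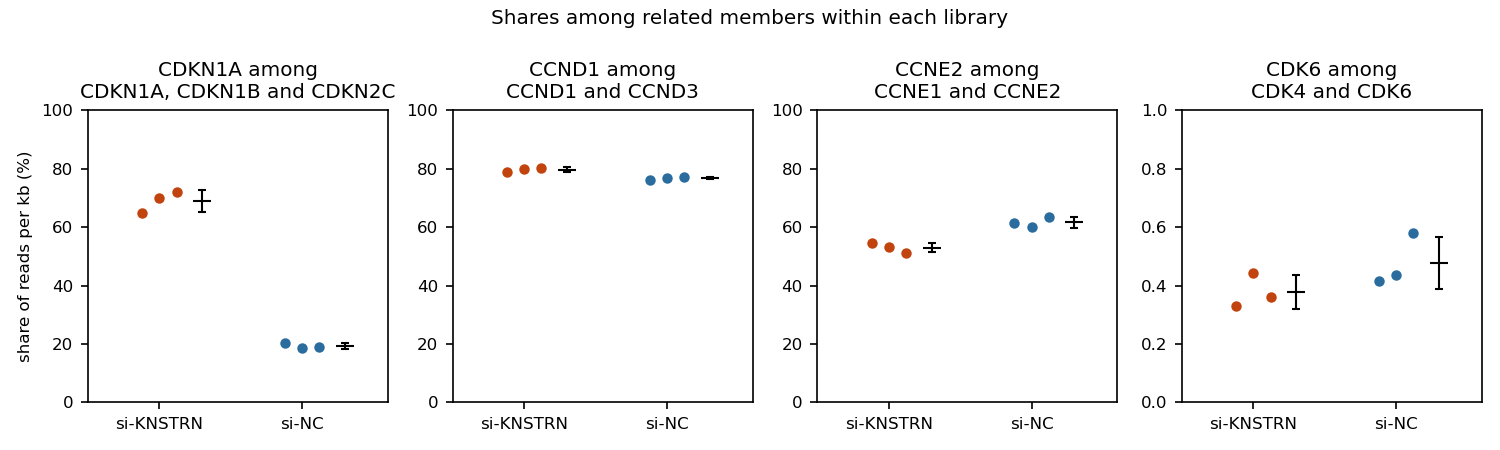
Share (%) of reads per kb that 1 member takes among its relatives, in the 3 si-KNSTRN and 3 si-NC libraries, with mean and SD (the CDK6 axis ends at 1%). CDKN1A held 68.9% of the 3 inhibitors in si-KNSTRN cells, against 19.4% in si-NC cells, while the other shares differed by at most 8.64 points.

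Summed by role, the 4 cyclins came to 134, 147 and 160 CPM per kb in si-KNSTRN libraries, against 85.7, 87.2 and 85.4 in si-NC libraries. The 3 inhibitors came to 42.7, 46.5 and 51.5 in si-KNSTRN libraries, against 32.9, 30.8 and 33.6 in si-NC libraries, because the rise of CDKN1A exceeded the falls of CDKN1B and CDKN2C on this scale. This sum leaves out inhibitor genes that are not members. CDKN2A, 1 of them, was at 103 ± 6.83 CPM in si-KNSTRN and 108 ± 10.1 CPM in si-NC cells and was not called, so that the sum does not give the whole of the inhibitor RNA. The 3 kinases came to 151, 151 and 161 in si-KNSTRN libraries, against 149, 154 and 148 in si-NC libraries, and overlapped. CCND1 gave most of the cyclin sum and CDK4 most of the kinase sum in both groups. Like the order of levels, the sums depend on the length used. The level of CDKN1A relative to that of CDK2 was 0.685, 0.811 and 0.903 in si-KNSTRN libraries, against 0.158, 0.130 and 0.147 in si-NC libraries. CCND1 relative to CDK4 was 0.782, 0.869 and 0.868 in si-KNSTRN libraries, against 0.501, 0.502 and 0.519 in si-NC libraries. CDKN2C relative to CDK4 was 0.0381 ± 0.00479 in si-KNSTRN and 0.116 ± 0.00537 in si-NC libraries (SD, n = 3 each). None of these 3 ratios overlapped between the groups.

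The other G1 cyclin, CDK and inhibitor genes, listed with some of their partners and regulators, changed in both directions. Of 16 tested, 5 were called higher and 6 lower, against 31.2% and 31.3% of all genes tested. The 16 include CDC37, CDC25A, CKS1B and MNAT1, which are neither cyclin, CDK nor inhibitor genes. CDC37, a chaperone gene, was among those called higher and is also counted in the folding list below. CCNG1 and CCNG2, genes of G-type cyclins, fell by 0.76 and 0.92 on the log2 scale (SE 0.05 and 0.07), and CCNC, the cyclin C gene of the Mediator kinase module, rose, at 0.52 (SE 0.06). CDKN2A, the INK4 locus gene whose row pools the p16 and ARF products, was at 103 ± 6.83 CPM in si-KNSTRN and 108 ± 10.1 CPM in si-NC cells (SD, n = 3 each) and was not called (adjusted p = 0.389 by edgeR). CDKN2B, the gene of the INK4 inhibitor p15, rose by 0.67 on the log2 scale (SE 0.16) and was scarce, at 4.35 ± 0.164 CPM in si-KNSTRN and 2.74 ± 0.521 CPM in si-NC cells. CDKN2D, a further INK4 gene, had a log2 fold change of -0.08 (edgeR, adjusted p = 0.402). Of these INK4 genes, CDKN2B thus rose, CDKN2C fell, and CDKN2A and CDKN2D were not called.

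RB1, the gene of the retinoblastoma protein, was not called (log2 fold change 0.08, SE 0.05, adjusted p = 0.194 by edgeR). Of 18 RB and E2F genes, 4 were called higher and 5 lower, against 31.2% and 31.3% of all genes tested. TFDP1, a partner of E2F factors, had a log2 fold change of 0.58, the repressor gene E2F7 0.42 and the histone-binding gene RBBP4 -0.46. Targets of E2F that serve S phase entry were mostly lower: 17 of 30 were called lower, against 31.3% of all genes, and 7 higher, against 31.2%. Their median log2 fold change was -0.26, against -0.01 over all genes tested. TYMS, MCM3 and TK1, genes of thymidylate synthesis, the replicative helicase and thymidine salvage, fell by 1.27, 1.05 and 0.72 on the log2 scale. TYMS overlaps ENOSF1, so that its reads share the limit given for CCNE2. The 4 member cyclins were higher in the same libraries in which many S phase genes were lower. Mitotic cyclins and CDK1 regulators divided into 4 higher and 4 lower of 10, beside the same shares of all genes. CKS2 was at 0.63, CDC25C at -0.62 and WEE1 at -0.49.

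Among ubiquitin ligase genes for G1 regulators, 4 of 17 were called higher and 7 lower, against 31.2% and 31.3% of all genes tested. The 17 include USP28, whose product removes ubiquitin and which was not called. SKP2, whose product marks p27 for breakdown, fell by 0.48 (SE 0.06, adjusted p = 3.9e-06 by edgeR), KLHL9 by 0.55 and DTL, which directs the breakdown of p21 in S phase, by 0.34 on the log2 scale. Of 6 genes for the folding and transport of D cyclins and their kinases, 5 were called higher and 1 lower, beside the same shares of all genes. GSK3B, a kinase that phosphorylates cyclin D1, had a log2 fold change of 0.58, and the chaperone genes CDC37 and HSP90AA1, which fold CDK4, had 0.42 and 0.40. MDM2, itself a ubiquitin ligase gene, was at 47.9 ± 1.14 CPM in si-KNSTRN and 46.1 ± 4.84 CPM in si-NC cells (SD, n = 3 each) and was not called (adjusted p = 0.526 by edgeR).

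Of 31 transcription factor genes known to act at CDKN1A or CCND1, 13 were called higher and 8 lower, against 31.2% and 31.3% of all genes tested. The AP-1 genes FOS and JUNB rose by 2.11 and 0.97 on the log2 scale (SE 0.18 and 0.06), and CTNNB1, the beta-catenin gene, fell by 0.89 (SE 0.06). Whether any of these factors bears on CDKN1A or CCND1 here was not tested.

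**Figure D5:**
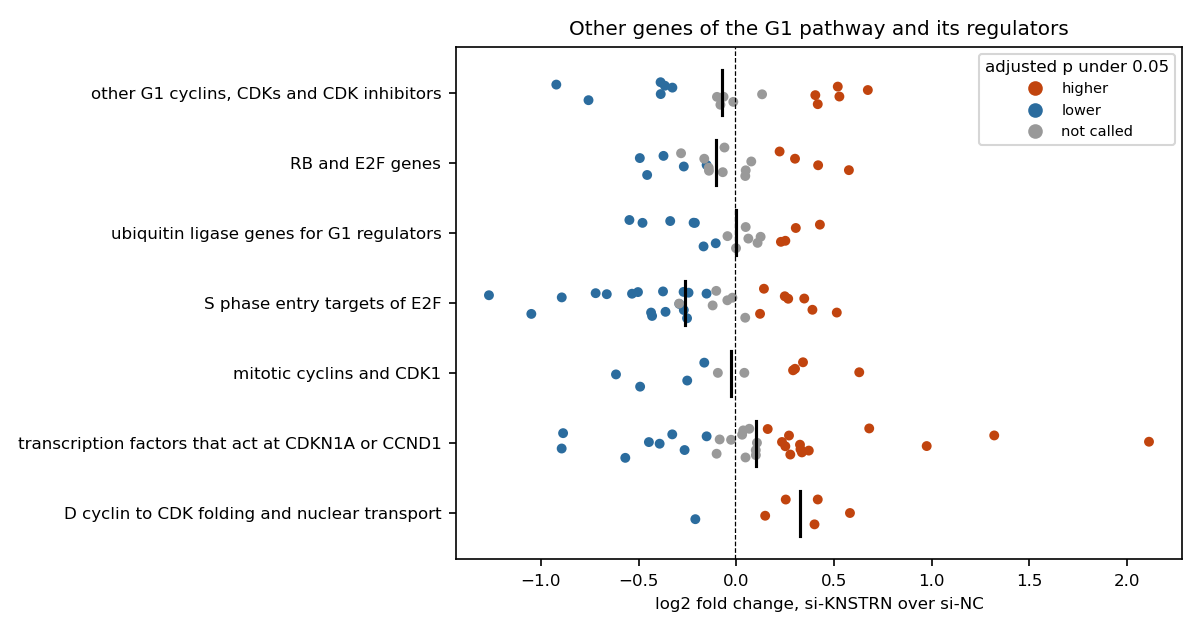
Log2 fold changes (si-KNSTRN over si-NC) of the tested genes of 7 lists around the G1 members, coloured by call, with the list's median as a bar and the median of all genes as a dashed line. The E2F targets have a median of -0.26, and each of the 7 lists holds genes called in both directions.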

How the data were processed

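Total RNA of T24 cells was sequenced with 3 libraries per group, grouped by sample title. The authors deposited raw read counts per gene with no normalization. The submitters' processing notes name HISAT2 2.0.1, featureCounts, fastp 0.20.0 and FastQC 0.11.5, with the build GRCh38. Strand setting, annotation release and the handling of multi-mapped reads were not given in the sources used here. Depth was 16386799 to 20596074 reads per library.

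The members and lists were chosen with earlier results of these data known. The deposited counts of 12650 genes (filterByExpr, minimum count 10) were scaled by TMM and tested by edgeR 4.0.16 (R 4.3.3) with its quasi-likelihood test, two-sided, adjusted by Benjamini-Hochberg over all genes; intervals cover 95%. On simulated counts for si-KNSTRN against si-NC (12640 genes tested), it called 70% of 50 genes altered by 1.25-fold, 96% of 50 altered by 1.5-fold, 98% of 50 altered by 2-fold and, wrongly, 5 of 12440 left unaltered. The simulation altered few genes, all with ample reads. It gave every gene the same spread between replicates and no library a shift of its own, so that these rates may not carry over to the data. No replicate pair agreed within sampling noise (chi-square per degree of freedom 2.16 to 10.3). Lengths and 3' UTRs came from 1 GENCODE 29 transcript per gene (best APPRIS rank, then longest). No member shared over 0.148% of its 50-base windows with another gene. Gene positions came from RefSeq (GRCh38.p14). Named genes were the members, KNSTRN, the 3 genes with the smallest p per list, the 3 nearest profiles of CDKN1A, CCND1 and CDK6, and 7 fixed genes; 1 list and 1 of the fixed genes are not reported here. Alternatives were other scalings, DESeq2 1.42.0, limma-voom 3.58.1, other filters and thresholds, a replicate block and each library left out. Figures used matplotlib 3.10.9.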

Additional observations from a re-analysis of the deposited data

How the results depend on the processing

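All 7 calls among the members and their directions held under the 14 alternatives with a test (DESeq2-type, library-size and upper-quartile scaling, DESeq2, limma-voom, both other filters, the replicate block and each of the 6 libraries left out). CDK4 was called with library size alone (log2 fold change 0.13), which made 6 members higher, and CDK2 with upper-quartile factors (-0.14), which made 3 lower. These scalings shifted all genes by 0.036 and -0.043 (log2). Requiring a change of at least 25% as well left 2431 genes called higher in place of 3946 and 2688 lower in place of 3959, because fewer genes can pass. Over all 8 context lists, including the 1 not reported here, it left 28 distinct genes higher in place of 48 and 36 lower in place of 54. With coding length, 2 (si-KNSTRN) and 4 (si-NC) members kept their place in the level order. With the replicate number as a block, 5 members were higher and 2 lower, and CDKN1A had a log2 fold change of 2.35. Same-numbered libraries did not deviate together (correlations -0.063, 0.053 and -0.034), so the numbers were not taken as pairs, and the block changed no call among the members. Without CCNE2 and CDK4, which overlap other genes of the table (chosen after seeing the data), 4 members were higher and 2 lower. Leaving out 1 library gave CDKN1A 2.25 to 2.47, CDKN2C -1.57 to -1.45 and CDK6 -0.35 to -0.10. CDK6, at 84 to 128 reads, is the member whose precision depth limits most.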
